A study of Mus musculus with 10 samples.

Results

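10 genes of the p53 pathway were followed in cardiomyocytes of the infarcted mouse heart: Trp53, which encodes p53, its targets Mdm2, Cdkn1a, Ccng1, Sesn2, Phlda3 and Zmat3, and the stress-response genes Gadd45a, Gadd45b and Gadd45g. They were chosen by symbol, through the Ensembl identifiers of the count table, and make up 10 of its 51789 genes. RNA was sequenced from cardiomyocytes isolated 4 days after myocardial infarction (MI) from 5 mice that overexpress GRK5, a G protein-coupled receptor kinase, in cardiomyocytes alone (TgGRK5-MI) and from 5 non-transgenic littermates (NLC-MI), so both groups carried an infarct and no sham-operated hearts were among the samples. The age and sex of each mouse were not in the labels, and the promoter that drives the transgene was not given in the sources used here. The comparison of the groups asks how more GRK5 in the cardiomyocyte goes along with its transcripts after MI.

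p53 is a transcription factor that cells hold at a low level until DNA damage, oxidative stress or lack of oxygen stabilises the protein. It then switches on genes that halt the cell cycle, repair DNA, limit growth signals or start apoptosis, and it also switches on Mdm2, whose product marks p53 for degradation and so closes a feedback loop. The GADD45 genes are small, fast-responding stress genes, of which Gadd45a is a classical p53 target while Gadd45b and Gadd45g are mainly induced by other signals, among them inflammatory and growth stimuli. Because p53 is controlled largely through its protein, the mRNA of its targets is a common readout of its activity.

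The libraries held 7968779 to 23381527 counts, and 3 of them (NLC-MI replicate 3, TgGRK5-MI replicates 3 and 4) had fewer than the other 7. Levels are given as CPM, the counts of a gene scaled to the library total and between libraries with TMM factors, and 3 counts corresponded to 0.121 to 0.393 CPM. Grk5 itself averaged 60.4 ± 9.50 CPM in the controls against 1222 ± 472 CPM in the transgenic mice (SD, n = 5 in each group), with no overlap. The 8 cardiomyocyte markers summed to 46528 to 121301 CPM in NLC-MI and 49493 to 96145 CPM in TgGRK5-MI. RNA of other cells was present as well: the 6 fibroblast markers summed to 2716 to 16312 and 2995 to 16243 CPM, the 8 macrophage markers to 550 to 1809 and 950.0 to 2008 CPM, the 6 endothelial markers to 679 to 1360 and 643 to 1425 CPM, and the 5 neutrophil markers to 9.69 to 24.9 and 12.6 to 30.4 CPM. The 5 lymphocyte markers reached at most 2.40 CPM together, and no marker was at 0 in every library. In bulk samples of this kind, fewer cells of a type and less RNA per cell cannot be told apart.

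Gadd45g was the member with the widest difference between the groups, with a mean of 53.2 CPM in the controls against 23.1 CPM in the transgenic mice, and it was the only 1 of the 10 with an unadjusted p under 0.05. p53 itself, all 6 targets, Gadd45a and Gadd45b differed by less than the spread between mice, with exact two-sided permutation p from 0.302 to 0.960. By edgeR's quasi-likelihood test, adjusted after Benjamini and Hochberg across all 15232 genes that could be tested, 0 of the 10 members had an adjusted p under 0.10, where 12 of all genes, 0.0788%, did. At an unadjusted p under 0.05, 0 members were higher in TgGRK5-MI (1.77% of all genes) and 1 was lower (2.08% of all genes). With DESeq2 in place of edgeR, 1 member, Gadd45g, had an adjusted p under 0.10, where 69 of 17398 genes did. With limma-voom 0 members did, where 50 of 15232 genes did. No member had groups without overlap, as 1.00% of all genes had.

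**Figure D1:**
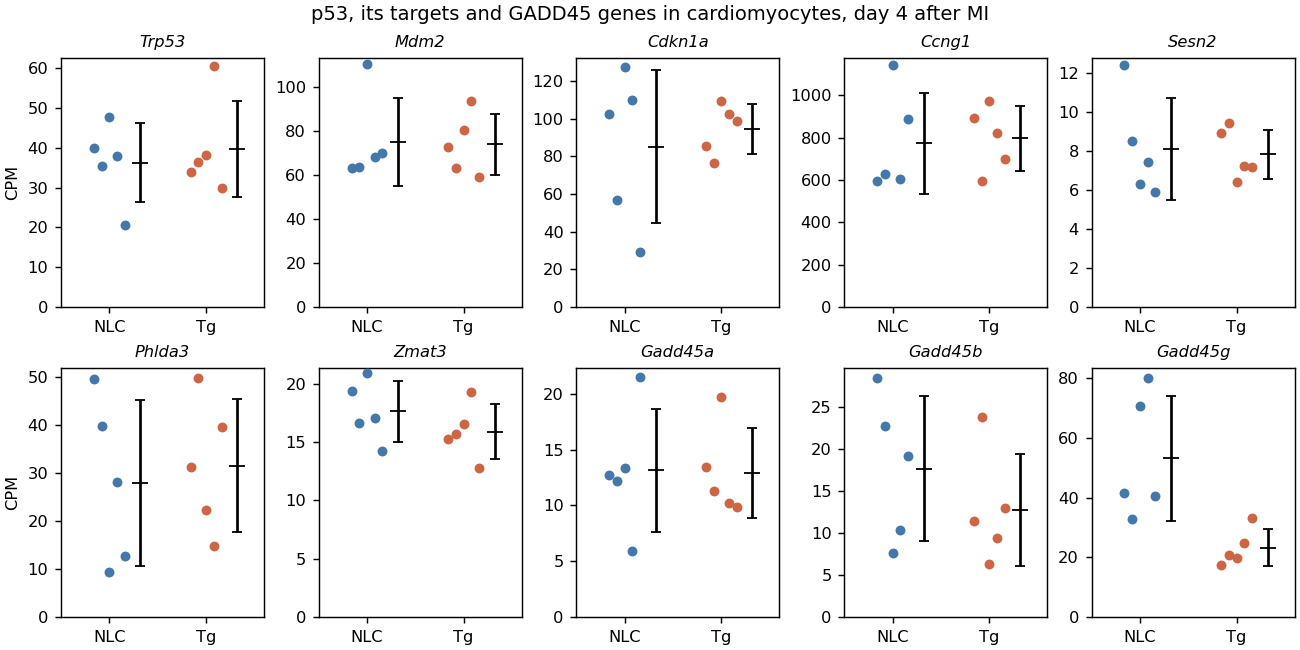
CPM (vertical axes, each from 0) of the 10 genes in the 5 NLC-MI (blue) and 5 TgGRK5-MI (orange) libraries, with replicates 1 to 5 from left to right in each group and the mean ± SD in black. Gadd45g is the panel in which the groups barely overlap, at the 32.8 CPM of NLC-MI replicate 2 and the 33.1 CPM of TgGRK5-MI replicate 5.

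Trp53 (ENSMUSG00000059552, mm10 chr11:69580359-69591873, plus strand) was expressed in every library. It was at 40.0, 35.3, 47.8, 37.8 and 20.6 CPM in NLC-MI replicates 1 to 5 and at 33.8, 36.3, 38.1, 60.5 and 29.8 CPM in TgGRK5-MI replicates 1 to 5. The lowest value came from a control and the highest from a transgenic mouse, and the remaining 8 libraries lay between 29.8 and 47.8 CPM in both groups mixed. The means were 36.3 ± 9.95 and 39.7 ± 12.1 CPM (SD, n = 5 in each group here and in the pairs of means that follow, controls first), which gave a log2 fold change (TgGRK5-MI over NLC-MI) of 0.13 ± 0.24 (SE) with a 95% interval of -0.39 to 0.65, and an exact two-sided permutation p of 0.643. The interval spans 0.761-fold to 1.57-fold, so differences within that range remain compatible with the values of these 5 mice a group. Its sign turned in the 7 libraries with the most counts, where the log2 fold change was -0.011.

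Mdm2 (ENSMUSG00000020184, chr10:117688875-117710758, minus strand), the ubiquitin ligase that degrades p53, was at 63.0, 63.8, 110.4, 68.0 and 69.9 CPM in NLC-MI and at 72.9, 63.3, 80.7, 93.8 and 59.2 CPM in TgGRK5-MI. Of the controls, 4 sat within 63.0 to 69.9 CPM and replicate 3 stood above them all, while the transgenic libraries ran from 59.2 to 93.8 CPM and overlapped them. The means, 75.0 and 74.0 CPM, gave a log2 fold change of -0.02 ± 0.19 (SE), with a 95% interval of -0.43 to 0.39.

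Cdkn1a (ENSMUSG00000023067, chr17:29090976-29100727, plus strand) encodes p21, the cyclin-dependent kinase inhibitor through which p53 arrests the cell cycle. It was at 102, 56.9, 127, 110.1 and 29.3 CPM in NLC-MI and at 85.2, 76.6, 109.6, 102 and 98.6 CPM in TgGRK5-MI. The controls held both the lowest and the highest values and enclosed the whole transgenic range. The means were 85.2 ± 40.7 and 94.5 ± 13.4 CPM, with a log2 fold change of 0.15 ± 0.32 (SE) and a 95% interval of -0.55 to 0.85. Without NLC-MI replicate 5, the library at 29.3 CPM, the sign turned and the log2 fold change was -0.079. An annotated transcript on the opposite strand, AC167363.2, covers 273 of the 3553 exon bases of Cdkn1a, and the TruSeq RNA kit named in the labels is one that does not mark strand, so reads from that stretch cannot be told apart.

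The start of Cdkn1a is shown because it is the textbook p53 promoter among the members. The window runs from 250 bases before to 50 after the RefSeq start site (GRCm38.p6, chr17:29090729-29091028, plus strand, the upstream of its 2 starts), with matches to the p53 decamer, the short element of which p53 sites are built, in capitals.
Cdkn1a: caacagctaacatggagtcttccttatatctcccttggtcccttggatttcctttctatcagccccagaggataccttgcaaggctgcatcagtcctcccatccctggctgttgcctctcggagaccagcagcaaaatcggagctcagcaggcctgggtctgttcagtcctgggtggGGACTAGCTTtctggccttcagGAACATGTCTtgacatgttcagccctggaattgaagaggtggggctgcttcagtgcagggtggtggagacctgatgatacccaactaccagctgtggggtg
The decamer was searched on both strands by its consensus, and since that consensus is its own reverse complement, both strands give the same matches. The 2 matches lie at -73 to -64 and -51 to -42, counting the start base as 0. RefSeq windows were found for 9 of the 10 members, all but Zmat3. The windows of Trp53, Mdm2, Ccng1, Cdkn1a (upstream start) and Gadd45a held the decamer, and those of Sesn2, Phlda3, Gadd45b and Gadd45g did not. The window of the other Cdkn1a start did not hold it either. So 5 of the 10 windows held it, beside 8.36% of 32851 mouse promoter windows of the same length. Since 6 members were chosen as p53 targets, these shares are not a test of enrichment. A match describes the letters alone, and these 5 genes were among the 9 members whose expression differed by less than the spread between mice.

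Ccng1 (ENSMUSG00000020326, chr11:40748552-40755311, minus strand), which encodes cyclin G1, an atypical cyclin that takes part in the p53 and Mdm2 feedback, was by far the most abundant member. It ranged from 597 to 1145 CPM in NLC-MI (median 627) and from 594 to 973 CPM in TgGRK5-MI (median 820.2), and the ranges overlapped almost fully. The log2 fold change was 0.04 ± 0.24 (SE), with a 95% interval of -0.47 to 0.56. Phlda3 (ENSMUSG00000041801, chr1:135766119-135769136, plus strand), which encodes a small protein that holds back AKT signalling, had the largest coefficient of variation of the 10 members in NLC-MI, 62.0%, and in TgGRK5-MI came second at 43.8% after Gadd45b at 52.2%. It ran from 9.29 to 49.8 CPM in NLC-MI and from 14.8 to 49.9 CPM in TgGRK5-MI, and its log2 fold change of 0.17 ± 0.45 (SE) had a 95% interval of -0.80 to 1.15. For Phlda3, then, even a change of 0.573-fold or 2.22-fold would lie inside the interval.

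Sesn2 (ENSMUSG00000028893, chr4:132492032-132510501, minus strand), a sestrin that restrains mTORC1 and oxidative stress, was among the members with the lowest counts, at 5.89 to 12.4 CPM in NLC-MI and 6.43 to 9.42 CPM in TgGRK5-MI. Its lowest library held 48 counts, and its log2 fold change was -0.05 ± 0.23 (SE), with a 95% interval of -0.55 to 0.44. The group means were nearly level at 8.11 ± 2.62 and 7.83 ± 1.27 CPM. Zmat3 (ENSMUSG00000027663, chr3:32334792-32366014, minus strand), an RNA-binding zinc finger protein, had the smallest ratio of highest to lowest library of the members, 1.64, at 19.4, 16.6, 20.9, 17.0 and 14.2 CPM in NLC-MI and 15.3, 15.7, 16.5, 19.3 and 12.8 CPM in TgGRK5-MI. Of the transgenic libraries, 4 lay below the NLC-MI mean, yet the ranges overlapped from 14.2 to 19.3 CPM. Its log2 fold change of -0.15 ± 0.16 (SE) had the narrowest interval of the 10 members, -0.50 to 0.20, or 0.708-fold to 1.15-fold, and it kept its sign in all 18 alternative fits, although it was closer to 0 without NLC-MI replicate 3 (-0.083) or TgGRK5-MI replicate 5 (-0.080) and further without NLC-MI replicate 5 or TgGRK5-MI replicate 4 (-0.23 each).

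Set per kilobase of exon and averaged over both groups, the 10 members followed a clear order at its top and a blurred one below. Ccng1 averaged 223 CPM per kb over the 10 libraries and stood above Gadd45g, the next at 32.5, in 10 of 10 libraries and without overlap. Gadd45g was above Cdkn1a (25.3) in 6 libraries, Cdkn1a above Phlda3 (19.1) in 7, and Phlda3 above Mdm2 (14.7) in 6, and each of these neighbours overlapped. The place of Gadd45g held in the controls alone, at 45.3 CPM per kb beside 24.0 for Cdkn1a, whereas in TgGRK5-MI its 19.7 lay below Cdkn1a at 26.6 and Phlda3 at 20.3. Gadd45b (9.58) and Trp53 (9.39) were in this order in 5 of 10 libraries. Gadd45a (7.38) lay above Sesn2 (2.29) in all 10 libraries although their ranges overlapped, and Zmat3 was lowest at 1.47 CPM per kb.

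**Figure D2:**
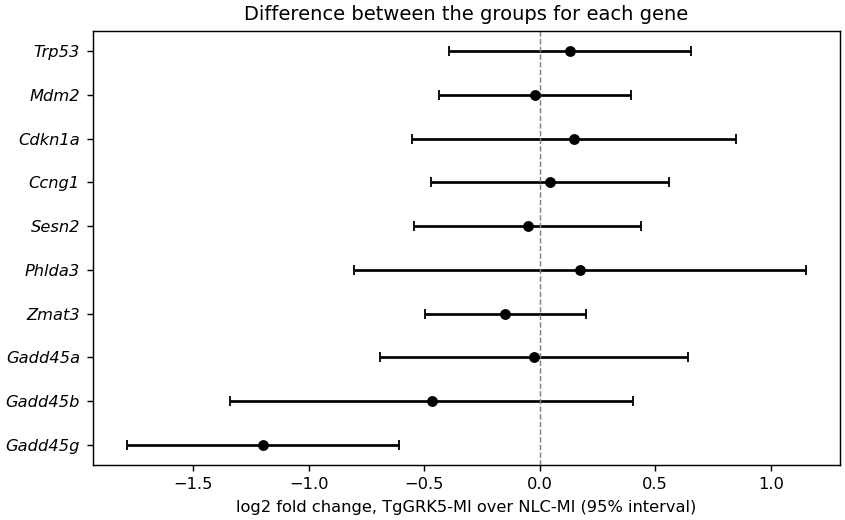
log2 fold change of each gene, TgGRK5-MI over NLC-MI (horizontal axis), from edgeR, with its 95% interval as a bar and a dashed line at no difference. The intervals of 9 genes cross 0, and that of Gadd45g runs from -1.79 to -0.61.

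Gadd45g (ENSMUSG00000021453, chr13:51846678-51848468, plus strand) belongs to the GADD45 proteins, which bind MAP3K4, PCNA and p21 and link stress to the p38 and JNK kinases and to cell cycle arrest. It was at 41.7, 32.8, 70.7, 80.2 and 40.4 CPM in NLC-MI replicates 1 to 5. In TgGRK5-MI replicates 1 to 5 it was at 17.3, 20.9, 19.6, 24.8 and 33.1 CPM. Of the 5 transgenic libraries, 4 lay below every control, and the ranges met at a single pair, NLC-MI replicate 2 and TgGRK5-MI replicate 5. The means were 53.2 ± 20.9 and 23.1 ± 6.20 CPM, which gave a log2 fold change of -1.20 ± 0.27 (SE) with a 95% interval of -1.79 to -0.61, that is 0.436-fold (0.289 to 0.656). By edgeR the unadjusted p was 0.000863, the 34th smallest of the 15232 genes, and the adjusted p was 0.386. The exact two-sided permutation test gave p = 0.0159, where 0.00794 is the smallest that 5 against 5 allows. DESeq2 gave an adjusted p of 0.0151, and over all 18 alternative fits the adjusted p ran from 0.0151 to 0.997 while the log2 fold change stayed between -1.36 and -0.92, with an unadjusted p under 0.05 in 18 of 18. In the 7 libraries with the most counts the log2 fold change was -1.05.

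Gadd45b (ENSMUSG00000015312, chr10:80930073-80932204, plus strand), the member most tied to NF-kB and TGF-beta signals, was at 28.5, 22.7, 7.59, 10.3 and 19.2 CPM in NLC-MI and at 11.4, 23.8, 6.26, 9.37 and 13.0 CPM in TgGRK5-MI. Both groups held low and high libraries, and the means of 17.7 ± 8.68 and 12.8 ± 6.67 CPM gave a log2 fold change of -0.47 ± 0.40 (SE) with a 95% interval of -1.34 to 0.40. Its sign was negative in all 18 alternative fits, with values of -0.25 without NLC-MI replicate 1, -0.30 without TgGRK5-MI replicate 3 and -0.82 without TgGRK5-MI replicate 2, and its p was never under 0.05, the lowest being 0.0516 in edgeR without TgGRK5-MI replicate 2. Gadd45a (ENSMUSG00000036390, chr6:67035096-67037457, minus strand), the p53-inducible member, was at 12.7, 12.2, 13.3, 5.96 and 21.5 CPM in NLC-MI and at 13.5, 11.3, 19.7, 10.2 and 9.83 CPM in TgGRK5-MI. The controls again enclosed the transgenic range, and the log2 fold change was -0.03 ± 0.31 (SE), with a 95% interval of -0.69 to 0.64. Of the 1764 exon bases of Gadd45a, 337 are shared with E230016M11Rik on the opposite strand, so reads there cannot be told apart.

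The RefSeq start windows of the 3 genes are set side by side as a description, with matches to TATAAA and CCAAT in capitals. The log2 fold changes were -0.03 for Gadd45a, -0.47 for Gadd45b and -1.20 for Gadd45g, and whether they differ from each other was not tested. The interval of Gadd45b, -1.34 to 0.40, holds the value of Gadd45g, and that of Gadd45a, -0.69 to 0.64, does not. Whether the letters of the windows bear on these values was not tested. The windows lie on GRCm38.p6 at chr6:67037358-67037657 (Gadd45a, minus strand), chr10:80929841-80930140 (Gadd45b, plus strand) and chr13:51846425-51846724 (Gadd45g, plus strand), each 250 bases before to 50 after the start.
Gadd45a: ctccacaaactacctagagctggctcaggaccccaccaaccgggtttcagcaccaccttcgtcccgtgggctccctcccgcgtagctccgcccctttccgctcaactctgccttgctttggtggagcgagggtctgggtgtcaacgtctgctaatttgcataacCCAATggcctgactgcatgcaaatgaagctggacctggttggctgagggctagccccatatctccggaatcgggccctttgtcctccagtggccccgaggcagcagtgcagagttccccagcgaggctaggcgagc
Gadd45b: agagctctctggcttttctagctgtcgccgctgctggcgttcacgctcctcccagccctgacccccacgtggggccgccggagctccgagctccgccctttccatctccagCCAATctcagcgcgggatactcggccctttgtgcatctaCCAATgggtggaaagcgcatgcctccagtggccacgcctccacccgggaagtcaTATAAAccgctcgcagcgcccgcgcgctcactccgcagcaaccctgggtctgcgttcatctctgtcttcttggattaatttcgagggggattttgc
Gadd45g: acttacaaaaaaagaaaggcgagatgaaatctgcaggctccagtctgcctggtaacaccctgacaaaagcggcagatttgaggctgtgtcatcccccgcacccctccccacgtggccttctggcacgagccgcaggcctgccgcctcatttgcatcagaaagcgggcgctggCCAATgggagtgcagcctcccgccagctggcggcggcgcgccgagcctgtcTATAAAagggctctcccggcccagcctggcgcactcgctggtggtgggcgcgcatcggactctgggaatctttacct
TATAAA lies at -46 to -41 in Gadd45b and at -27 to -22 in Gadd45g, and the Gadd45a window holds no match. CCAAT lies at -86 to -82 in Gadd45a, at -139 to -135 and -100 to -96 in Gadd45b, and at -78 to -74 in Gadd45g. Over all 32851 windows, searched on both strands, 13.6% held TATAAA and 37.4% held CCAAT. The letters TGACGTCA (in 1.79% of windows) and TGANTCA (7.81%), elements of the ATF and AP-1 factors, were not in any member's window.

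Per kilobase, Gadd45g made up the largest part of the GADD45 mRNA in both groups. Its share of the summed level of the 3 genes was 58.5, 56.9, 83.0, 87.4 and 58.6% in NLC-MI and 49.9, 45.4, 52.5, 64.4 and 67.3% in TgGRK5-MI. It was the largest of the 3 in 10 of 10 libraries, although TgGRK5-MI replicates 4 and 5 lay above 3 of the controls. The mean share was 68.9 ± 15.0% in NLC-MI and 55.9 ± 9.46% in TgGRK5-MI, for Gadd45a 12.3 ± 5.97% and 21.6 ± 8.84%, and for Gadd45b 18.8 ± 11.0% and 22.5 ± 9.81%. These shares are given as a description, with no test.

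**Figure D3:**
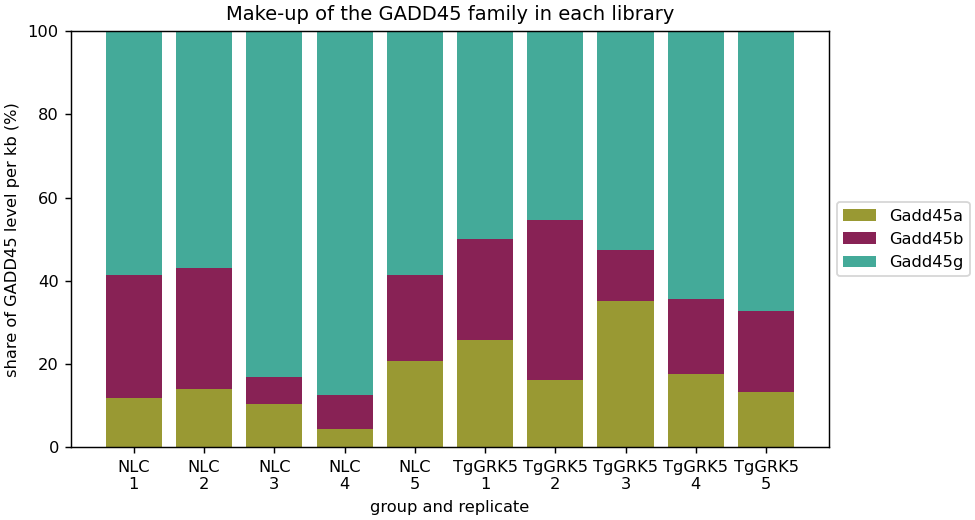
Share (%) of Gadd45a, Gadd45b and Gadd45g in their summed level per kb, with 1 bar for each library. Gadd45g is the largest part of each bar, from 45.4% in TgGRK5-MI replicate 2 to 87.4% in NLC-MI replicate 4.

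The proteins that GADD45 and p53 work with were looked at through gene lists. The 14 GADD45 partners were MAP kinases of the p38 and JNK branch, cyclin B1 and CDK1, PCNA and others. Of these, 0 had an unadjusted p under 0.05 upward (1.77% of all genes) and 1 downward (2.08% of all genes). That 1 was Map3k4, the kinase that GADD45 proteins bind and activate. It was at 34.6, 46.3, 52.6, 60.3 and 61.3 CPM in NLC-MI and at 43.7, 31.5, 41.3, 31.8 and 32.4 CPM in TgGRK5-MI, so that 3 transgenic libraries lay below every control. The log2 fold change was -0.50 ± 0.18 (SE), with an unadjusted p of 0.0170 by edgeR, an adjusted p of 1.00 and an exact permutation p of 0.0317. The most abundant partners were Pcna, the DNA polymerase clamp, at 77.1 ± 16.1 and 93.4 ± 14.5 CPM, and Map2k3, a kinase of p38, at 83.2 ± 13.0 and 77.7 ± 7.77 CPM. The median log2 fold change of the 14 was 0.11, beside 0.00 over all genes tested.

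Of 18 regulators of p53 (kinases, ubiquitin ligases, deubiquitinases and cofactors), 0 had an unadjusted p under 0.05 in either direction, and their median log2 fold change was -0.01. The most abundant were Usp7, a deubiquitinase of Mdm2 and p53, with a log2 fold change of -0.06 ± 0.13 (SE), and the ubiquitin ligase Herc2, with -0.32 ± 0.20 (SE). Of 14 paralogs of the members, 10 could be tested and 0 had an unadjusted p under 0.05. Their most abundant genes were Phlda1, at 107 ± 116 and 94.7 ± 72.5 CPM, and Sesn1, the p53-inducible sestrin, at 85.8 ± 39.7 and 90.3 ± 16.3 CPM. No change in the mRNA of the p53 control machinery was detectable at this number of mice, and its proteins were not measured here.

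Further p53 targets split by role gave few differences. Among 13 targets for arrest and DNA repair the median log2 fold change was 0.01, with 0 genes higher and 1 lower at an unadjusted p under 0.05. The 1 lower was Sfn, the 14-3-3 sigma protein of the G2 checkpoint, at 20.9 ± 9.29 and 11.0 ± 2.80 CPM, with a log2 fold change of -0.92 ± 0.36 (SE) and an unadjusted p of 0.0239 by edgeR. Its exact permutation p was 0.127, since NLC-MI replicate 5 at 5.76 CPM lay below all 5 transgenic libraries. The most abundant of this list were Btg2, an antiproliferative gene that also answers to growth signals, with a log2 fold change of -0.67 ± 0.41 (SE), and Rps27l, with 0.22 ± 0.33 (SE).

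Among 13 targets for cell death the median log2 fold change was 0.13, and 10 of the 13 lay above 0. Perp, a p53-induced membrane protein of desmosomes, was the most abundant of them. It was also the only 1 with an unadjusted p under 0.05, on the higher side, where 1.77% of all genes lay. It was at 164, 151, 209, 268 and 210.5 CPM in NLC-MI and at 300.3, 263, 319, 327 and 307 CPM in TgGRK5-MI. Of the transgenic libraries 4 lay above every control, with replicate 2 just below the highest control. The log2 fold change was 0.60 ± 0.17 (SE), with an unadjusted p of 0.00440 by edgeR, an adjusted p of 0.770 and an exact permutation p of 0.0159. Ei24, an endoplasmic reticulum protein and the next in abundance, had a log2 fold change of 0.14 ± 0.14 (SE).

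Among 11 targets for metabolism and redox control the median log2 fold change was 0.06. At an unadjusted p under 0.05, 1 was higher (1.77% of all genes) and 1 lower (2.08%). By edgeR, 0 of the 11 had an adjusted p under 0.10. Ephx1, the microsomal epoxide hydrolase, was at 38.8, 39.7, 34.2, 26.8 and 42.5 CPM in NLC-MI and at 44.1, 50.2, 54.1, 68.4 and 42.6 CPM in TgGRK5-MI. Each transgenic library lay above each control (1.00% of all genes had groups without overlap). NLC-MI replicate 5 and TgGRK5-MI replicate 5 were nearly level in Ephx1. Its log2 fold change was 0.51 ± 0.17 (SE), with an unadjusted p of 0.0117 and an adjusted p of 1.00 by edgeR. Ddit4, an mTORC1 inhibitor induced by hypoxia and glucocorticoids as well as p53, was at 39.2 ± 10.6 and 25.1 ± 11.5 CPM, with a log2 fold change of -0.64 ± 0.29 (SE) and an unadjusted p of 0.0479. The most abundant of the list, Ptp4a3 and Gpx1, had log2 fold changes of -0.08 ± 0.23 and 0.31 ± 0.21 (SE).

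Lists of neighbouring programmes were set beside the members. Of 10 genes of the integrated stress response, 0 had an unadjusted p under 0.05, and Atf4, its central factor, was at 133 ± 17.7 and 155 ± 22.0 CPM while Vldlr was at 234 ± 102 and 247 ± 53.2 CPM. Of 10 proliferation genes, which p53 and p21 hold down when active, 0 had an unadjusted p under 0.05. Mki67 was at 107 ± 43.6 and 115 ± 50.5 CPM and Top2a at 69.3 ± 24.5 and 77.3 ± 25.9 CPM. The median log2 fold changes of these lists were 0.05 and 0.23.

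The immediate early genes, transcription factors such as Fos and Jun that answer within minutes to growth factors and stress, were the list that lay furthest from all genes. All 10 had a log2 fold change below 0, with a median of -0.76 beside 0.00 over all genes tested. At an unadjusted p under 0.05, 4 of the 10 were lower, where 2.08% of all genes were. By edgeR, 0 of the 10 had an adjusted p under 0.10. The list was chosen with earlier results of these data known, so its distance from all genes is a description. Fos was at 144, 114, 322, 86.0 and 288 CPM in NLC-MI and at 60.3, 82.8, 84.8, 73.7 and 74.6 CPM in TgGRK5-MI. Every transgenic library lay below every control (1.00% of all genes had groups without overlap). But the controls themselves ran over a wide range, with replicates 3 and 5 far above the others. The log2 fold change was -1.34 ± 0.33 (SE), with an adjusted p of 0.501 by edgeR and 0.0349 by DESeq2, and an exact permutation p of 0.00794, the smallest possible.

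Junb, another AP-1 subunit, was at 190.2 ± 47.8 and 113 ± 30.1 CPM, a log2 fold change of -0.75 ± 0.21 (SE). By edgeR its unadjusted p was 0.00436 and its adjusted p 0.770. Jun, at 268 ± 159 and 137 ± 57.1 CPM, had a log2 fold change of -0.96 ± 0.38 (SE), and Ier2, a nuclear regulator of the same early wave, had -0.50 ± 0.22 (SE). The exact permutation p was 0.0159 for Junb, but 0.0952 for Jun and 0.0635 for Ier2. Egr1, the most abundant of the list, was at 311 ± 165 and 183 ± 91.0 CPM. The count of immediate early genes with an unadjusted p under 0.05 was 2 of 10 without NLC-MI replicate 3 or 5 or TgGRK5-MI replicate 1, 2 or 5, 6 without TgGRK5-MI replicate 3 and 7 without NLC-MI replicate 2 or 4. It was 5 in the 7 libraries with the most counts. Over the alternatives, 264 to 672 of all genes tested were lower at that cut. The median log2 fold change of the list stayed below 0 but moved to -0.43 without NLC-MI replicate 3, and to -0.51 with limma-voom.

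**Figure D4:**
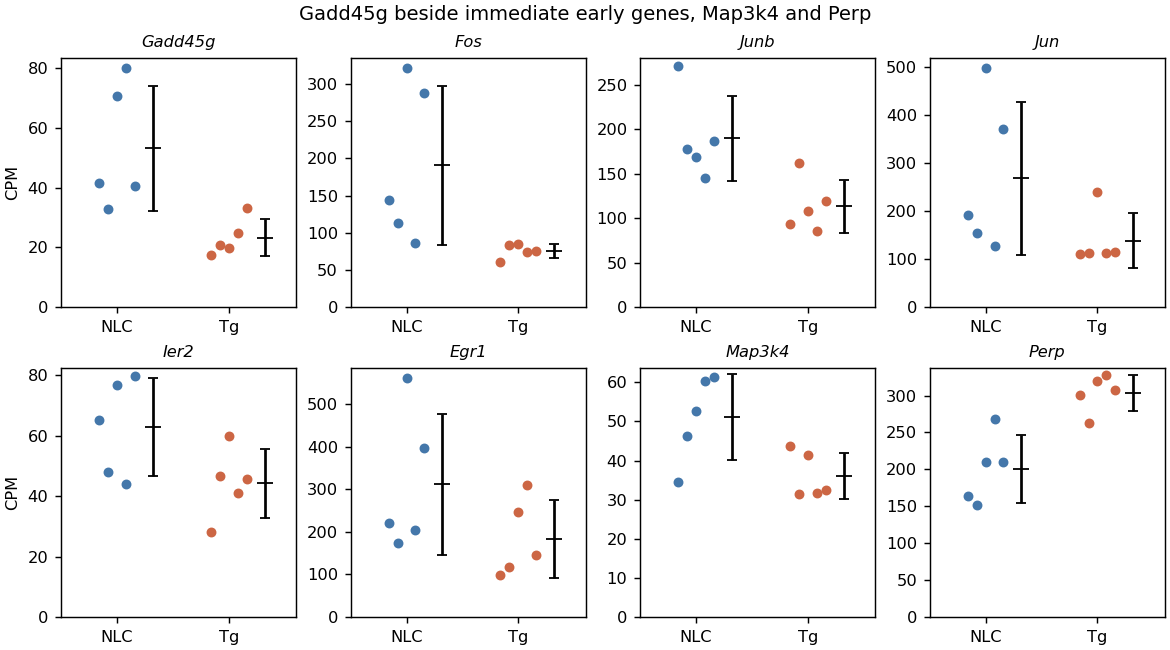
CPM (vertical axes, each from 0) of Gadd45g, 5 immediate early genes, Map3k4 and Perp in the 5 NLC-MI (blue) and 5 TgGRK5-MI (orange) libraries, replicates 1 to 5 from left to right, mean ± SD in black. The highest Fos values, 322 and 288 CPM, belong to NLC-MI replicates 3 and 5, while the highest Gadd45g values, 70.7 and 80.2 CPM, belong to NLC-MI replicates 3 and 4.

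Gadd45g and the immediate early genes shared only some of their high controls: replicate 3 was high in both, replicate 4 in Gadd45g and replicate 5 in Fos and Jun. Over the 10 libraries the log2 CPM of Gadd45g and the summed immediate early genes had r = 0.57 and rho = 0.60, with permutation p of 0.0865 and 0.0747, adjusted to 0.256 and 0.287 over 90 relations of members with other measures. Without the 2 libraries furthest from the median r was 0.33, and with each group centred on its own mean it was 0.12. NLC-MI replicate 4, highest in Gadd45g at 80.2 CPM, had the lowest Fos of the controls at 86.0 CPM.

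The members did not move as a block from mouse to mouse. Among the 45 pairs of members, 24 had a positive Pearson r of log2 CPM over the 10 libraries, and r ran from -0.84 to 0.80. By permutation, adjusted over the 45 pairs, 5 had a p of r under 0.10. Trp53 and Zmat3 varied together (r = 0.79, rho = 0.89, permutation p of 0.00670 and 0.00102, adjusted p = 0.0603 and 0.0459). This was the only pair of the 5 to keep an adjusted p under 0.10 without the 2 libraries furthest from the median of Trp53 (r = 0.96, adjusted p = 0.0424), and with the groups centred r was 0.93.

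The other 4 pairs joined Mdm2, Ccng1, Sesn2 and Phlda3. Mdm2 and Ccng1 varied in the same direction (r = 0.80, rho = 0.78, adjusted permutation p = 0.0603 and 0.0771). Phlda3 ran against both, with r = -0.84 and rho = -0.82 for Mdm2 and r = -0.82 and rho = -0.81 for Ccng1 (adjusted permutation p = 0.0603 for each r and 0.0765 for each rho). Sesn2 and Phlda3 varied together (r = 0.79, rho = 0.85, adjusted permutation p = 0.0603 and 0.0706). Without the 2 furthest libraries these r values were 0.79, -0.62, -0.75 and 0.74, with adjusted p from 0.278 to 0.409, so none of these 4 pairs kept its call with 8 libraries, although r stayed close to its first value for Mdm2 with Ccng1 and moved most for Mdm2 with Phlda3. With the groups centred and all 10 libraries, 7 pairs had an adjusted p under 0.10, among them Mdm2 with Gadd45b at 0.0895, and by rho 8 pairs did. Trp53 and its target Cdkn1a had r = 0.76 and rho = 0.72 (adjusted permutation p = 0.121 and 0.109, and 0.0975 with the groups centred), and r was 0.49 without NLC-MI replicate 5 and TgGRK5-MI replicate 4. Gadd45g was not among these pairs.

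**Figure D5:**
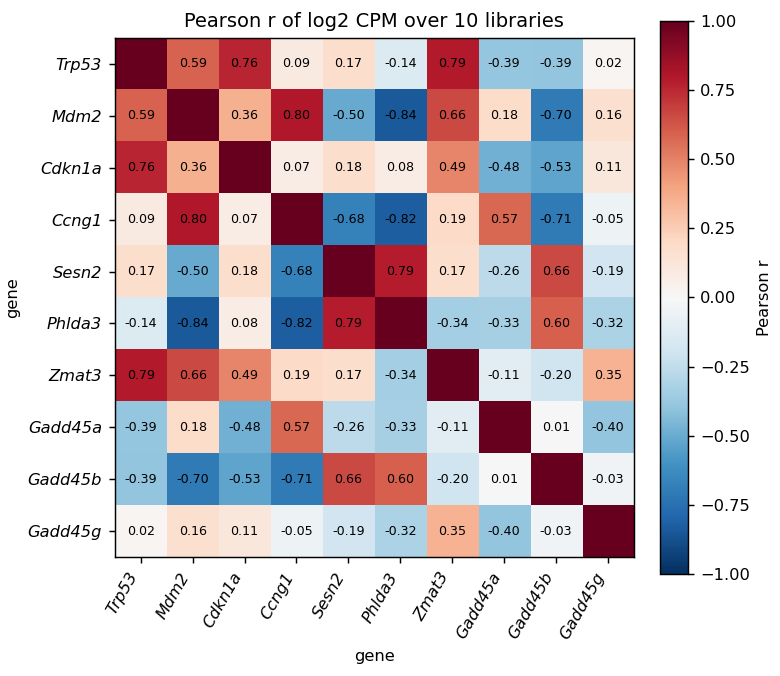
Pearson r of log2 CPM over the 10 libraries for each pair of the 10 genes (colour scale from -1 to 1). Trp53 with Zmat3 and Mdm2 with Ccng1 are positive at 0.79 and 0.80, and Phlda3 with Mdm2 and Ccng1 negative at -0.84 and -0.82.

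Some members followed the markers of other cells or the size of the library, and the part of these in the relations above was not tested. Phlda3 varied with the summed macrophage markers (r = 0.90, rho = 0.94, adjusted permutation p = 0.0184 and 0.0198 over the 90 relations, r = 0.84 without the 2 furthest libraries). Sesn2 varied with the fibroblast markers (r = 0.88, rho = 0.87, adjusted permutation p = 0.0184 and 0.0906, r = 0.94 without the 2). Trp53 varied with the neutrophil markers (r = 0.88, rho = 0.85, adjusted permutation p = 0.0290 and 0.0906, r = 0.61 without the 2). Mdm2 was lower in the libraries with more counts (r = -0.92, rho = -0.58, adjusted permutation p = 0.0290 and 0.287, r = -0.60 without the 2). The remaining 86 relations had an adjusted p of r over 0.10, those of Gadd45g with each marker list included.

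The genes whose mouse-to-mouse pattern was most like that of Trp53, with the groups centred and over 11387 genes of at least 5 CPM in 10 libraries, were C5ar1 (r = 0.99), Tgfb1 (0.98), Apbb1ip (0.98), Tgfb2 (0.98) and Wwtr1 (0.97). C5ar1 encodes the complement C5a receptor of myeloid cells, Tgfb1 and Tgfb2 encode TGF-beta ligands, and Wwtr1 encodes the Hippo effector TAZ. For Cdkn1a they were Myc (0.94), Abracl (0.93), Mindy3 (0.92), Nrn1 (0.91) and Spcs3 (0.91). These values are descriptions and come from the same 10 libraries.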

How the data were processed

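RNA-seq of isolated cardiomyocytes was analysed from 10 libraries, 1 for each mouse, grouped by the genotype in the labels. The authors deposited whole-number counts per Ensembl gene for each library. The submitters' processing notes name Bowtie2, RSEM 1.2.31, DESeq2 and mm10, and the labels name a TruSeq RNA kit, of a kind that does not mark strand, while the strand setting of the counting is not given in the sources used here. RSEM estimates need not be whole, and whether they were rounded is not stated. Reads shared between similar genes or paralogs can be divided by such a method, which could affect single genes. Symbols, positions and exon lengths came from GENCODE M21, which held 51596 of the 51789 identifiers.

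Genes kept by the edgeR filter for low counts (15232) were fitted with TMM scaling and the quasi-likelihood test of edgeR 4.0.16 (R 4.3.3), with Benjamini-Hochberg adjustment and a threshold of 0.10, and the script was tested on simulated data. Single values were compared by exact two-sided permutation, and correlations by 100000 resamples. Log2 CPM used a prior count of 2. Depth limits precision as stated beside the values, and counting error is only a part of it. Alternatives were RLE scaling, library size alone, no count filter, at least 10 counts in each library, a replicate block, DESeq2 1.42.0, limma-voom 3.58.1 with quality weights, and each library left out. The members, lists and tests were chosen with earlier results of these data known. From each list of other genes, those with an unadjusted p under 0.05 and the 2 with the highest mean CPM are named, and for Trp53 and Cdkn1a the 5 most alike genes. The fit on the 7 libraries with the most counts, the relations with markers and library totals, and the alternatives for immediate early genes were added after the data were seen.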

Additional observations from a re-analysis of the deposited data

Results flagged for a closer look

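Within the 20 groups of 5 libraries looked at (10 members in each genotype), 2 held a library that stood apart from its group by Dixon's test at the 95% level, and chance alone gives about 1 in 20 groups. Trp53 was at 60.5 CPM in TgGRK5-MI replicate 4, where the other 4 transgenic libraries lay between 29.8 and 38.1 CPM. Mdm2 was at 110.4 CPM in NLC-MI replicate 3, where the other 4 controls lay between 63.0 and 69.9 CPM. These libraries hold 9114469 and 7968779 counts, the lowest totals of their groups.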

How the results depend on the processing

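The call on Gadd45g depended on the tool. DESeq2 gave 1 member an adjusted p under 0.10, and the other fits gave 0. Members with groups that do not overlap numbered 1 (Gadd45g) with RLE scaling and 1 with library size alone, and 0 to 1 when a library was left out. The main fit gave 0, where 1.00% of all genes had such groups. The shares of all genes under the other settings are not given here, so these counts are a description alone. With a library left out, fewer values have to stand apart for any gene. Pairs of members with an adjusted p of r under 0.10 fell from 5 to 1 without the 2 furthest libraries, which leaves 8, and numbered 7 with the groups centred and 8 by rho. Over all genes, 12 passed with edgeR, 69 with DESeq2 and 50 with limma-voom, and leaving out a library gave as few as 3. Immediate early genes with an unadjusted p under 0.05 numbered 2 to 7 over the alternatives, all of them lower. Of all genes, 264 (of 15407, without NLC-MI replicate 4) to 672 (of 15232, limma-voom) were lower at that cut.

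Small differences changed sign. With limma-voom the log2 fold changes were -0.056 for Trp53, 0.050 for Mdm2, -0.062 for Phlda3 and 0.10 for Gadd45a. In the 7 libraries with the most counts Trp53 was at -0.011. With a library left out they ran from -0.070 to 0.25 for Trp53, -0.12 to 0.16 for Mdm2, -0.079 to 0.34 for Cdkn1a, -0.050 to 0.23 for Ccng1, -0.16 to 0.14 for Sesn2, -0.053 to 0.47 for Phlda3 and -0.24 to 0.22 for Gadd45a. The cause was not tested. Zmat3 (-0.23 to -0.080 with a library left out), Gadd45b (-0.82 to -0.25) and Gadd45g (-1.36 to -0.92 over all alternatives) kept their sign in all 18 alternatives.

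Same-numbered libraries of the groups had correlations of 0.07, 0.66, 0.38, -0.34 and 0.08. Their mean was 0.17, beside -0.03 for libraries of different number. The labels do not say whether the numbers pair mice, and so few values cannot settle it. The replicate block gave 0 members an adjusted p under 0.10, a log2 fold change of -1.15 for Gadd45g and 0.035 for Gadd45a. The number of mice limits what can be seen among the members, whose lowest count was 48.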

Other observations

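Gadd45g was given the same search for genes of like pattern after its values were seen. With the groups centred and over 11387 genes, the closest were Abcg2 (r = 0.95), a drug and urate transporter, Esd (0.94), Cct8 (0.93), a chaperonin subunit, Ran (0.93) and Malt1 (0.91). Abcg2 followed Gadd45g within the groups while its own difference between them had the opposite sign, with a log2 fold change of 0.41 and an unadjusted p of 0.00816 by edgeR. Of the cardiomyocyte markers, the calcium release channel gene Ryr2 was the only 1 of 8 with an unadjusted p under 0.05 (lower, 2.08% of all genes). Its log2 fold change was -0.93 ± 0.30 (SE), with an adjusted p of 0.968 by edgeR and an exact permutation p of 0.0476. Of the 8 markers, 3 had a log2 fold change above 0 and 5 below 0. The markers of macrophages, neutrophils, endothelial cells, fibroblasts and lymphocytes had 0 such genes by edgeR.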
